A study of Mus musculus with 17 samples.

Results

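Tcf7 and Lef1, the genes deleted in this study, were followed at the chromatin level in mature mouse thymocytes. Members were all islands of enriched reads, from 12 histone libraries, and all Tcf1 binding peaks that overlapped chr11:52055000-52140000 (the Tcf7 window, 85 kb) or chr3:130790000-130940000 (the Lef1 window, 150 kb) in the mm9 build. This gave 129 of 346699 islands, 52 at Tcf7 and 77 at Lef1, and 19 of 7807 Tcf1 peaks, 8 at Tcf7 and 11 at Lef1. DKO CD8 cells were CD8 thymocytes of the genotype Tcf1-/-Lef1-/-, in which CD4-Cre, active in T cells from the CD4-expressing stage on, had deleted both factors. WT CD4 and WT CD8 cells were wild-type CD4 and CD8 thymocytes. The sort for CD8 cells took those with high TCRβ and neither CD69 nor CD24. One phenotype label of the WT CD4 samples names CD8, whereas title and source name give CD4, which was followed here. The Tcf1 peaks came from splenic CD8 T cells, wild type with a Tcf1-/- library alongside, and so from another tissue than the histone marks. The series holds 17 samples, with 1 library per group and mark: there are no replicates, no test between groups was possible, and intervals below cover counting error only, in PCR-amplified reads without molecular identifiers.

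Tcf7 encodes Tcf1, and Lef1 encodes its close relative Lef1. Both are HMG-box proteins that bind DNA, take up β-catenin at the end of the Wnt pathway and recruit Groucho/Tle co-repressors when β-catenin is absent. In the thymus they act in commitment to the T lineage and in the choice between CD4 and CD8 fates. H3K4me3 marks active promoters, H3K27ac and H3K9ac mark active promoters and enhancers, and H3K27me3 is laid down by Polycomb at silenced genes.

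The 250 bases before 3 annotated starts of these genes are printed from RefSeq (GRCm38.p6), in which both genes were found, with 6 starts in all. They are on another build than the islands and were not placed on them. Capitals mark TCAAAG or its reverse complement CTTTGA, the core of the sequence that Tcf1 and Lef1 bind, searched on both strands.
Tcf7 start 1, chr11:52283015-52283264, reverse strand: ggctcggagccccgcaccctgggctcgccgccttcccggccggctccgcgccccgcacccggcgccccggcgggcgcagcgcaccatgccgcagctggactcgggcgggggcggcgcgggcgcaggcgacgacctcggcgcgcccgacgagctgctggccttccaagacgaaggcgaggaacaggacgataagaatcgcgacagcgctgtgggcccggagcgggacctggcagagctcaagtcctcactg
Lef1 start 1, chr3:131110047-131110296, forward strand: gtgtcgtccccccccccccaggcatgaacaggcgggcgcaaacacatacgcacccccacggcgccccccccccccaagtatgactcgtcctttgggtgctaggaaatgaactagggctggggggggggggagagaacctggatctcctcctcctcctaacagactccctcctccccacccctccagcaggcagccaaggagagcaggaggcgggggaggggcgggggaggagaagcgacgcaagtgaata
Lef1 start 4, chr3:131156044-131156293, forward strand: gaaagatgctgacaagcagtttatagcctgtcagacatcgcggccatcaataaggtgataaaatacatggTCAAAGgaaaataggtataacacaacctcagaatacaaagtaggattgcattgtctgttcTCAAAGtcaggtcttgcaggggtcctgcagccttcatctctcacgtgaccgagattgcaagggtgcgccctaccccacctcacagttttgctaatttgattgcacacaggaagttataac
The stretch before Tcf7 start 1 had a GC content of 76%, that before Lef1 start 1 of 66.4% and that before Lef1 start 4 of 44.8%. Of the 6 starts only Lef1 start 4 had the motif, 180 and 120 bases before the start. At least 1 match was found before 4544 of 32851 starts in the RefSeq table (13.8%), and at least 2 before 449 (1.37%). A match describes these letters and is not evidence of binding. Whether a stretch is promoter or lies in a transcribed exon from another start was not checked. GC content and matches are therefore not to be read as those of the gene's promoter. Tcf7 lies on the reverse strand and Lef1 on the forward strand, so transcription runs towards lower coordinates at Tcf7 and towards higher ones at Lef1. In RefSeq order Tcf7 overlaps Skp1, and reads were not assigned to genes.

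The active marks were present at both genes in the DKO CD8 cells, and the Tcf7 window was among the richest of the genome. For H3K27ac it held 5322 reads in DKO CD8, 4921 in WT CD4 and 1387 in WT CD8, within islands that covered 59.2 kb in DKO CD8, 61.2 kb in WT CD4 and 39.8 kb in WT CD8. On a fixed grid of 85 kb windows, which can split a gene, 1 window had as many reads in DKO CD8, 2 in WT CD4 and 13 in WT CD8. For H3K9ac the Tcf7 window held 1253 reads in DKO CD8, 1223 in WT CD4 and 392 in WT CD8. For H3K4me3 it held 486 reads in DKO CD8, 355 in WT CD4 and 236 in WT CD8, within 12.4 kb of islands in DKO CD8, 8 kb in WT CD4 and 6.6 kb in WT CD8. The deletion itself could not be checked here, since an island gives reads over a whole interval and not over the deleted exons.

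The Lef1 window ranked its groups in another order, with most reads in WT CD4 for all 3 active marks. For H3K27ac it held 2027 reads in DKO CD8, 3704 in WT CD4 and 815 in WT CD8, within 52.0 kb of islands in DKO CD8, 78 kb in WT CD4 and 30.6 kb in WT CD8. For H3K9ac the counts were 355 in DKO CD8, 556 in WT CD4 and 177 in WT CD8. For H3K4me3 they were 200 in DKO CD8, 271 in WT CD4 and 139 in WT CD8. WT CD8 had the fewest reads in every case. Genome-wide, the median H3K27ac island held 34 reads in DKO CD8, 59 in WT CD4 and 24 in WT CD8, so raw counts cannot be read as differences between cells.

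**Figure D1:**
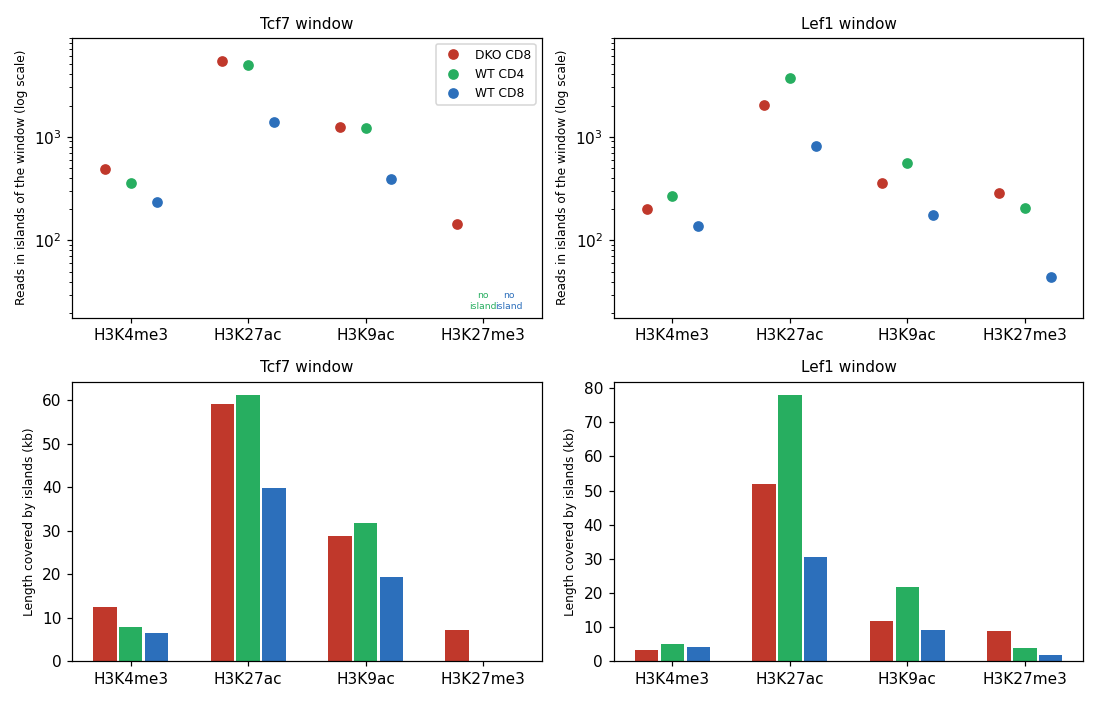
Reads within islands (top, log axis) and length covered by islands in kb (bottom) for the Tcf7 window (left) and the Lef1 window (right), per mark and group, 1 library each. DKO CD8 has the most H3K4me3, H3K27ac and H3K9ac reads at Tcf7 and WT CD4 the most at Lef1. At Tcf7 only DKO CD8 has an H3K27me3 island.

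The comparison that needs no scaling factor between libraries sets one gene against the other within the same libraries. Ratios that change with island strength would not cancel in it, and their part was not tested. H3K27ac reads lay more towards Tcf7 in DKO CD8. The log2 ratio of DKO CD8 over WT CD8 reads was larger at Tcf7 than at Lef1 by 0.63 (95% interval 0.48 to 0.77), and that of DKO CD8 over WT CD4 by 0.98 (0.89 to 1.08). For H3K4me3 the same differences were 0.52 (0.12 to 0.91) over WT CD8 and 0.89 (0.55 to 1.23) over WT CD4. Limited to regions called in both libraries, the H3K4me3 value over WT CD8 was 0.39 (-0.03 to 0.80). For H3K9ac they were 0.67 (0.36 to 0.99) over WT CD8 and 0.68 (0.45 to 0.91) over WT CD4, but over WT CD8 the value was 0.20 when limited to regions called in both and -0.10 when limited to islands above their list's median. Between the wild-type groups the sign was the other way for H3K27ac, with WT CD4 over WT CD8 at -0.36 (-0.50 to -0.22), but it was -0.13 (-0.28 to 0.01) when limited to regions called in both. There H3K4me3 gave -0.37 (-0.77 to 0.02) and H3K9ac -0.01 (-0.31 to 0.29), the last moving to -0.82 when limited to islands above their list's median. All 3 comparisons share libraries with each other. The intervals do not cover how far windows of the genome differ from each other. In H3K27ac of DKO CD8 over WT CD8, centred as below, first and last quartiles were -1.36 and 0.42 over 85 kb windows. Over 150 kb windows they were -2.11 and 0.18. For DKO CD8 over WT CD4 they were -0.34 and 0.41 over 85 kb windows, and -0.30 and 0.39 over 150 kb windows. How often a pair of windows differs by as much as these genes was not computed.

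Each window was then scaled to the rest of the genome by centring log2 ratios on the median of all regions called in both libraries, and 2-fold was taken as the mark of a difference. Over WT CD8, DKO CD8 stood at 0.96 for Tcf7 H3K4me3 (0.74 to 1.19), above 95.9% of 3979 grid windows. Tcf7 H3K9ac stood at 0.90 (0.74 to 1.07), above 87.2% of windows, and H3K27ac at 0.50 (0.41 to 0.58), above 77.7%, so 0 of the 3 were past 2-fold. Of 85 kb windows, 3.92% were past 2-fold higher on this centred scale for H3K4me3, 11.2% for H3K9ac and 9.97% for H3K27ac. Scaled to total island reads the Tcf7 values stood at 1.68 for H3K4me3, 1.50 for H3K9ac and 2.01 for H3K27ac, all past 2-fold. That scaling moves every window up, by 0.72 for H3K4me3, 0.59 for H3K9ac and 1.51 for H3K27ac. The share of windows past 2-fold on it was not computed. The centred Lef1 values were 0.45 for H3K4me3 (0.13 to 0.77), 0.23 for H3K9ac (-0.03 to 0.50) and -0.13 for H3K27ac (-0.25 to -0.01). Scaled to total island reads instead, Lef1 H3K27ac stood at 1.38, so its direction depends on the scaling. Over WT CD4, DKO CD8 stood at 1.07 for Tcf7 H3K4me3 (0.87 to 1.28), the one active-mark window ratio past 2-fold with this centring. Of 85 kb windows, 6.48% were that much higher in this comparison. Limited to regions called in both it was 0.87, and scaled to total island reads 0.93, both under 2-fold. Tcf7 gave 0.51 for H3K27ac (0.45 to 0.56) and 0.62 for H3K9ac (0.51 to 0.73), and Lef1 gave 0.18, -0.48 (-0.55 to -0.40) and -0.06 for H3K4me3, H3K27ac and H3K9ac. Scaled to total island reads, the H3K9ac values over WT CD4 were 1.95 at Tcf7 and 1.26 at Lef1, past 2-fold, as was Lef1 H3K4me3 over WT CD8 at 1.16. This scaling moves every H3K9ac window over WT CD4 up by 1.33 and every H3K4me3 window over WT CD8 up by 0.72. How many windows pass 2-fold with it was not computed, so these calls do not single out the genes. The centred Lef1 H3K27ac value of DKO CD8 over WT CD4 was above only 17.6% of windows, and that over WT CD8 above 63.6%. The centred Lef1 H3K9ac value over WT CD4, though near 0, was above 84.7%. WT CD4 over WT CD8 gave -0.10, -0.05 and 0.44 at Tcf7, and 0.28, 0.30 and 0.44 at Lef1, for the same marks. Scaled to total island reads these were 0.75, 1.54 and -0.45 at Tcf7 and 1.13, 1.90 and -0.44 at Lef1, so neither their size nor, for 4 of the 6, their sign held. Limited to regions called in both, Lef1 H3K27ac was 0.0648.

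**Figure D2:**
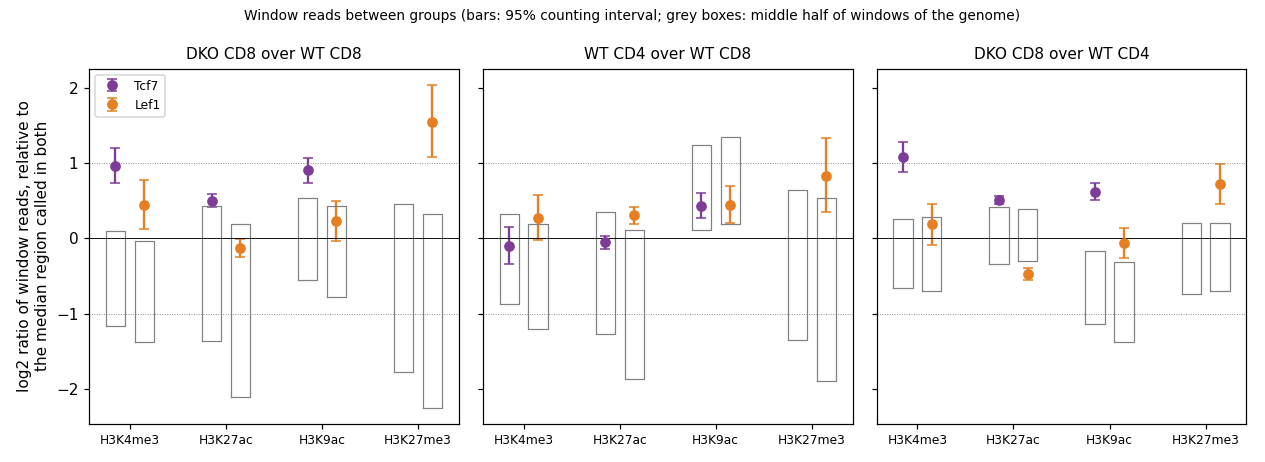
Centred log2 ratio of window reads (vertical axis) per mark for Tcf7 (purple) and Lef1 (orange), in 3 comparisons of groups. Bars are 95% counting intervals, grey boxes run from the first to the last quartile over grid windows of the same length, and dotted lines mark 2-fold. Tcf7 lies above Lef1 for each active mark in both comparisons of DKO CD8.

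Within the windows, the islands of pairs of libraries were merged into regions. DKO CD8 and WT CD8 gave 48 regions, of which 22 were called in both libraries, 21 only in DKO CD8 and 5 only in WT CD8. Of the 22, 2 were past 2-fold higher, both at Tcf7, and 2 past 2-fold lower, both at Lef1 and both H3K27ac. Genome-wide, 5.73% of H3K4me3 regions and 3.95% of H3K9ac regions were that much higher, beside 1 of 3 shared Tcf7 regions for each of these marks. For H3K27ac 8.08% were that much higher, beside 0 of 3 shared Tcf7 regions. That much lower were 15.2% of H3K27ac regions, so 2 of 9 shared Lef1 H3K27ac regions is near the background. DKO CD8 and WT CD4 gave 50 regions, of which 28 were called in both libraries, 10 only in DKO CD8 and 12 only in WT CD4. Of the 28, 5 were higher, all at Tcf7, and 5 lower, all at Lef1. Of H3K27ac regions, 4.3% were past 2-fold higher and 7.25% lower in that comparison, beside 2 of 5 shared regions higher at Tcf7 and 4 of 10 lower at Lef1. For H3K9ac the genome-wide shares were 6.07% higher and 3.41% lower, beside 2 of 4 shared regions higher at Tcf7 and 1 of 3 lower at Lef1. For H3K4me3 6.08% were higher, beside 1 of 2 at Tcf7. Scaling to total island reads would add 0.72 for H3K4me3, 1.51 for H3K27ac and 0.59 for H3K9ac to each log2 ratio over WT CD8, and -0.15, -0.04 and 1.33 to those over WT CD4, so these calls hold for the centred scale. Regions of 1 gene are neighbours and not independent of each other. WT CD4 and WT CD8 gave 49 regions, of which 20 were called in both libraries, 23 only in WT CD4 and 6 only in WT CD8. Of the 20, 1 was higher and 2 were lower, all Lef1 H3K27ac, for which 6.3% of regions were higher and 13.5% lower genome-wide. For H3K27ac, the mark with most regions, both DKO CD8 and WT CD8 had an island in 3 of 8 regions at Tcf7 and 9 of 15 at Lef1, beside 14.9% of all regions. Both DKO CD8 and WT CD4 had one in 5 of 6 at Tcf7 and 10 of 18 at Lef1, beside 45% of all, and both WT CD4 and WT CD8 in 2 of 4 and 8 of 17, beside 16.2% of all.

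At Tcf7 the strongest H3K4me3 region, 52090401 to 52096800, held 322 reads in DKO CD8, 307 in WT CD4 and 196 in WT CD8. The DKO CD8 island there was 6 kb wide, WT CD4 had islands of 4.4 and 1.6 kb, and WT CD8 had 1 of 4.4 kb. Centred ratios of DKO CD8 in this region were 0.64 (0.38 to 0.90) over WT CD8 and 0.69 (0.46 to 0.92) over WT CD4, both under 2-fold. The region next to it, 52086801 to 52090400, towards lower coordinates and so in the direction of transcription, held 100 reads in DKO CD8, 48 in WT CD4 and 22 in WT CD8. Among regions called in both it had the highest ratios, at 2.11 over WT CD8 (1.43 to 2.84) and 1.68 over WT CD4 (1.17 to 2.21). The DKO CD8 island filled 3.6 kb of it, that of WT CD4 2 kb and that of WT CD8 1 kb. Reads of the wild types outside their own islands are not known, so these ratios can be overstated. The region at 52123001 to 52125000 held 33 reads in DKO CD8, no island in WT CD4 and 18 reads in WT CD8. Islands at 52113201 to 52113800 and 52114401 to 52115000, with 13 and 18 reads, were called in DKO CD8 alone.

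Merged over all groups, most H3K27ac at Tcf7 lay in 2 broad blocks, within which WT CD8 had 9 separate islands of 0.6 to 12.8 kb. The block around the H3K4me3 regions, 52069801 to 52101400, held 3324 reads in DKO CD8, 3194 in WT CD4 and 787 in WT CD8. Its main DKO CD8 island, of 24.2 kb and 3238 reads, was the 3rd of 29636 by reads, its WT CD4 island of 29 kb the 4th of 24476, and the largest of WT CD8, of 12.8 kb and 520 reads, the 30th of 56985. The block on the 5′ side, 52104601 to 52136200, held 1911 reads in DKO CD8, 1678 in WT CD4 and 600 in WT CD8. At its far end, 52131401 to 52136200, DKO CD8 had 505 reads and WT CD4 286, a centred log2 ratio of 1.21 (1.002 to 1.43). WT CD8 had an H3K27ac island of 139 reads there, at 52130201 to 52135600. The region holding it, 52126401 to 52136200, had a ratio of DKO CD8 over WT CD8 of only 0.28 (0.07 to 0.48). H3K9ac in 52131801 to 52135200 had 50 reads in DKO CD8, 28 in WT CD4 and no island in WT CD8. Further out, 52137201 to 52139400 held 44 H3K27ac reads in DKO CD8, 26 in WT CD4 and no island in WT CD8. The last region, 52139801 to 52142200, held 43 reads in DKO CD8 and 39 in WT CD4, the WT CD4 island lying just outside the window. A WT CD4 island of 23 reads at 52067001 to 52068600 had no partner.

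H3K9ac followed the same layout at Tcf7. The region at 52077401 to 52100200 held 1034 reads in DKO CD8, 1005 in WT CD4 and 334 in WT CD8, and its DKO CD8 island of 19.2 kb was the 3rd of 6516 by reads. The region at 52119401 to 52125200 held 97 reads in DKO CD8, 121 in WT CD4 and 22 in WT CD8. Over WT CD8 the DKO CD8 ratio there was 1.37 (0.69 to 2.11), past 2-fold. The region at 52111801 to 52115200 held 72 reads in DKO CD8, 49 in WT CD4 and 36 in WT CD8, and past 2-fold was only DKO CD8 over WT CD4, at 1.14 (0.60 to 1.69). A WT CD4 island at 52073201 to 52075000 held 20 reads.

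**Figure D3:**
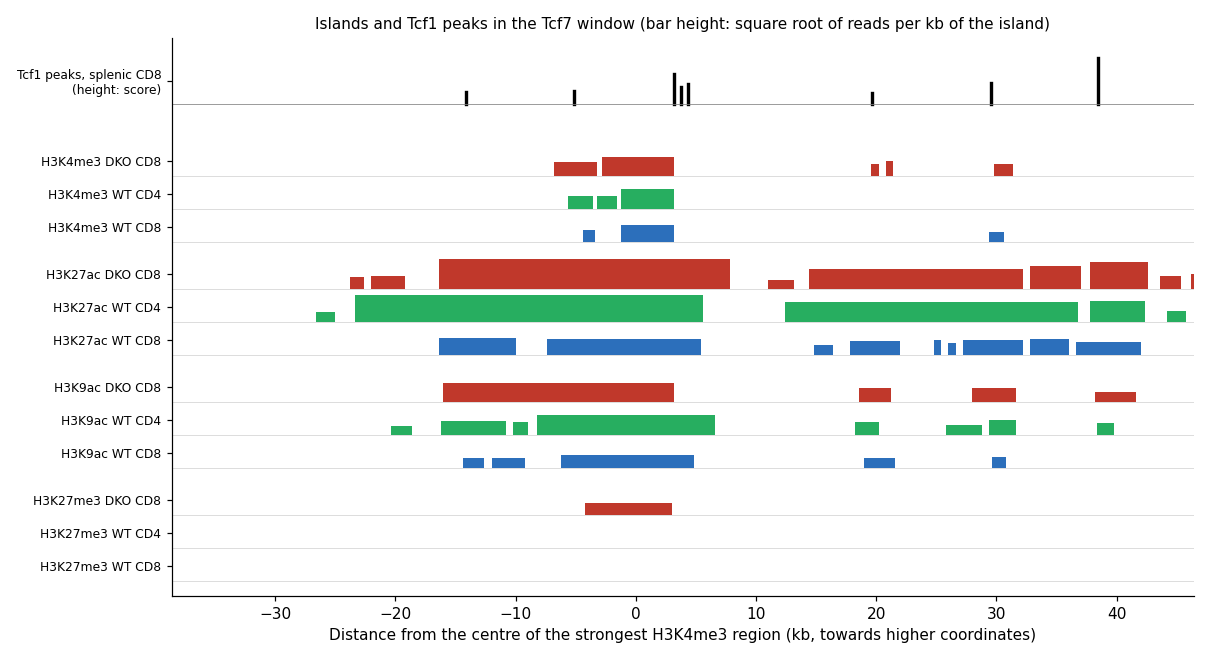
Islands of the 12 histone libraries and the 8 Tcf1 peaks in the Tcf7 window, by distance in kb from the centre of the strongest H3K4me3 region. Bar height is the square root of reads per kb of island, and black bars give the Tcf1 peak score. H3K27ac islands of every group lie mostly in 2 broad blocks, in WT CD8 as 9 separate islands, and an H3K27me3 island lies over the H3K4me3 regions in DKO CD8.

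At Lef1 one region carried nearly all H3K4me3. It lay at 130813001 to 130816400 and held 183 reads in DKO CD8, 228 in WT CD4 and 124 in WT CD8, with centred ratios of DKO CD8 of 0.48 (0.15 to 0.82) over WT CD8 and 0.30 (0.02 to 0.59) over WT CD4. A second region at 130902401 to 130903200 held 17 reads in DKO CD8, 22 in WT CD4 and no island in WT CD8. The remaining islands were 1 of 21 reads in WT CD4, at 130877201 to 130878400, and 1 of 15 reads in WT CD8, at 130808801 to 130810000.

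H3K27ac at Lef1 differed between groups along the window. Around the H3K4me3 region, at 130811801 to 130826400, there were 802 reads in DKO CD8, 973 in WT CD4 and 228 in WT CD8. In the other large region, 130853801 to 130866800, in the direction of transcription, there were 538 in DKO CD8, 1194 in WT CD4 and 297 in WT CD8. The distant region thus held fewer reads than the one at H3K4me3 in DKO CD8, a ratio of 0.671, and more in the wild types, 1.23 in WT CD4 and 1.30 in WT CD8. This ratio needs no scaling factor between libraries, but it counts only reads within each library's own islands. Its log2 difference was -0.96 (-1.26 to -0.66) for DKO CD8 minus WT CD8, -0.87 (-1.07 to -0.67) for DKO CD8 minus WT CD4 and -0.09 (-0.37 to 0.20) for WT CD4 minus WT CD8. These were the 2 Lef1 regions with the most H3K27ac reads, compared after the values were seen. At the H3K4me3 region islands were 11.6 and 1.4 kb wide in DKO CD8 and 5.6 and 8.2 kb in WT CD4. Those of WT CD8 were 5.4, 0.4 and 1.4 kb. In the distant region they were 12.2 kb in DKO CD8, 13 kb in WT CD4, and 2.2 and 8.2 kb in WT CD8. The part of island length in the ratio was not tested.

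The smaller Lef1 H3K27ac regions between and beyond them went the same way relative to WT CD4. At 130839401 to 130844200 there were 75 reads in DKO CD8, 265 in WT CD4 and 18 in WT CD8. The ratio of DKO CD8 over WT CD4 was -1.43 (-1.82 to -1.05) and that of WT CD4 over WT CD8 was 1.999 (1.31 to 2.78), the one region higher in WT CD4. At 130833401 to 130838800, 130845201 to 130849800 and 130867401 to 130880000, DKO CD8 had 47, 35 and 131 reads and WT CD4 133, 111 and 355, at ratios of -1.11, -1.27 and -1.04. WT CD8 had no island in the first and second of these and 109 reads in the last. At 130891801 to 130895600 DKO CD8 had 27 reads, WT CD4 67 and WT CD8 no island. DKO CD8 was thus below WT CD4 at each of these regions. At 130901401 to 130903400 DKO CD8 had 27 reads, WT CD4 53 and WT CD8 41, and the ratio of WT CD4 over WT CD8 was -1.51 (-2.13 to -0.89). The pattern ended towards the far side. At 130910601 to 130913600 there were 123 reads in DKO CD8, 136 in WT CD4 and 79 in WT CD8, and the ratio of DKO CD8 over WT CD4 was 0.25 (-0.11 to 0.61) and that of WT CD4 over WT CD8 -1.10 (-1.51 to -0.68). The region at 130930201 to 130932200 held 28 reads in DKO CD8, no island in WT CD4 and 10 reads in WT CD8. Islands called in DKO CD8 alone lay at 130789001 to 130791600 and 130905401 to 130906200, with 39 and 17 reads, and 5 regions with 21 to 127 reads were called in WT CD4 alone. The 5′ side did not show the pattern, and 130808001 to 130811400 held 138 reads in DKO CD8, 126 in WT CD4 and 33 in WT CD8. Over WT CD8, the 2 regions past 2-fold lower in DKO CD8 were 130867401 to 130871200, with 53 reads in DKO CD8 and 54 in WT CD8 (-1.47, -2.04 to -0.89), and 130901801 to 130903200, with 27 reads in DKO CD8 and 41 in WT CD8 (-2.04, -2.80 to -1.31). Scaling to total island reads moves every H3K27ac ratio of this pair up by 1.51, which turns the sign of the first.

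**Figure D4:**
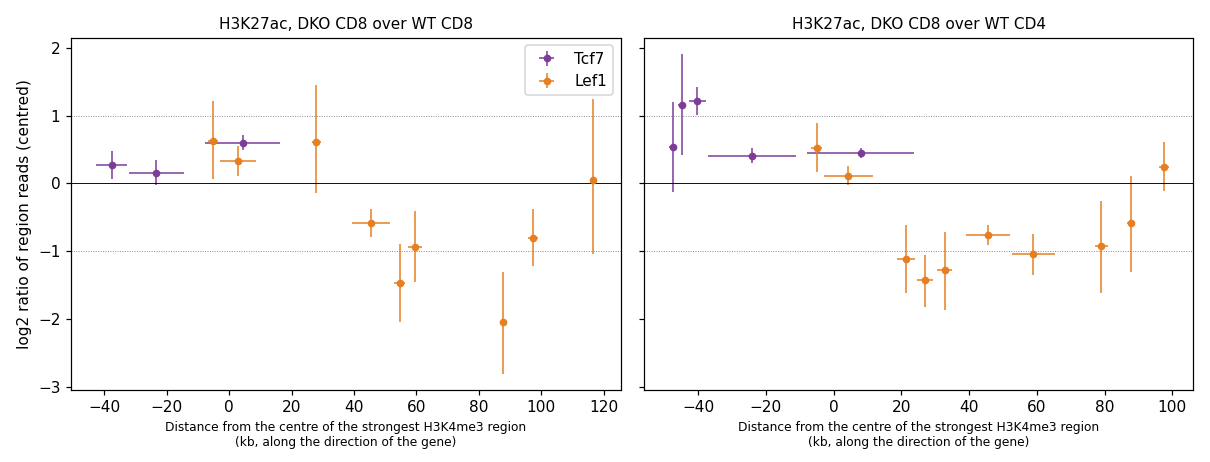
Centred log2 ratio of H3K27ac reads per region called in both libraries, DKO CD8 over WT CD8 (left) and DKO CD8 over WT CD4 (right), by distance in kb from the centre of the strongest H3K4me3 region along the direction of transcription. Horizontal bars give region width, vertical bars 95% counting intervals, and dotted lines 2-fold. Lef1 regions at the H3K4me3 region lie above 0 and most of those further along below it, while all Tcf7 regions lie above 0.

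H3K9ac at Lef1 was stronger around the H3K4me3 region than further along in every group, and most unevenly so in DKO CD8. At 130812201 to 130820000 it held 279 reads in DKO CD8, 247 in WT CD4 and 90 in WT CD8. At 130857001 to 130864000 it held 30 reads in DKO CD8, 150 in WT CD4 and 36 in WT CD8, and the ratio of DKO CD8 over WT CD4 was -1.74 (-2.35 to -1.16), while that over WT CD8 was -0.39 (-1.22 to 0.46). The distant region held 0.108 of the reads of the one at H3K4me3 in DKO CD8, 0.607 in WT CD4 and 0.40 in WT CD8. On the log2 scale, which needs no scaling between libraries, the difference was -1.89 (-2.73 to -1.06) for DKO CD8 minus WT CD8, -2.49 (-3.16 to -1.86) for DKO CD8 minus WT CD4 and 0.60 (-0.05 to 1.28) for WT CD4 minus WT CD8, computed after the values were seen. The distant island was 1.6 kb wide in DKO CD8 and 7 kb in WT CD4, and those of WT CD8 were 1.4 and 0.6 kb. Reads outside islands are not counted in these ratios. The DKO CD8 H3K9ac library had 6516 islands in all and that of WT CD4 32651, and the part of this in the ratio was not tested. The region at 130808801 to 130811200 held 46 reads in DKO CD8, 40 in WT CD4 and 20 in WT CD8. The other 6 regions were called in 1 library each, 4 in WT CD4 with 21 to 51 reads and 2 in WT CD8 with 14 and 17 reads.

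**Figure D5:**
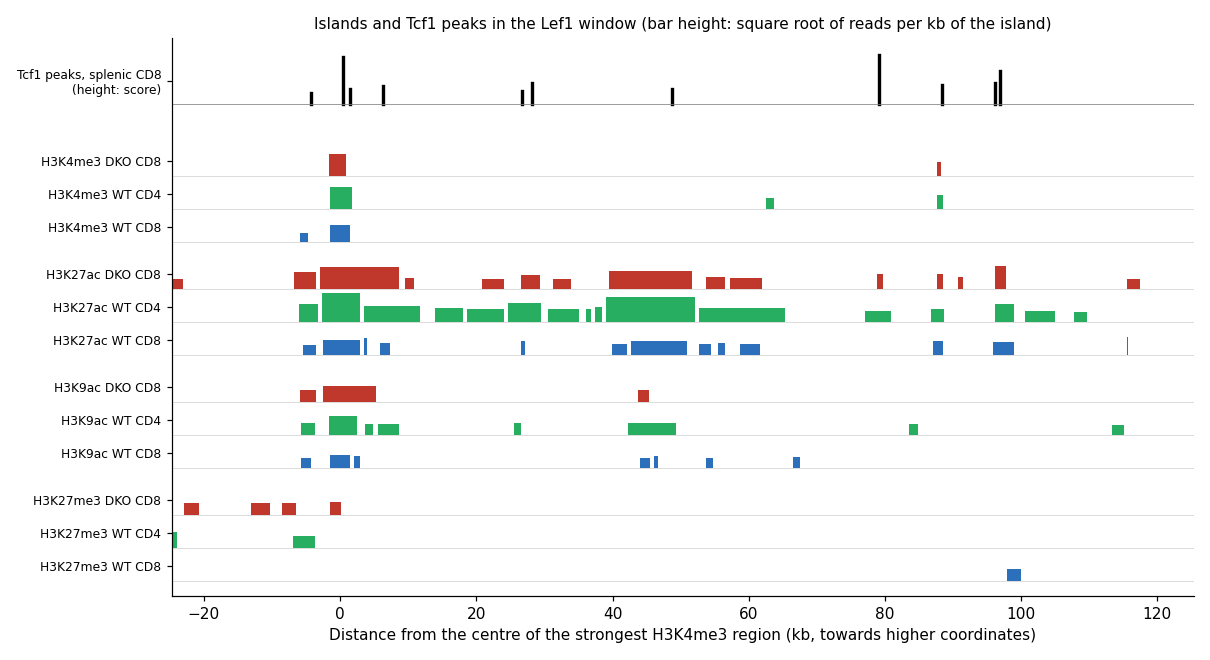
Islands of the 12 histone libraries and the 11 Tcf1 peaks in the Lef1 window, by distance in kb from the centre of the strongest H3K4me3 region. Bar height is the square root of reads per kb of island, and black bars give the Tcf1 peak score. H3K27ac islands away from the H3K4me3 region are mostly wider and taller in WT CD4 than in DKO CD8.

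H3K27me3, the repressive mark, was called over the H3K4me3 of both deleted genes in DKO CD8 and in neither wild type. At Tcf7 the DKO CD8 island lay at 52089401 to 52096600, 7.2 kb wide with 145 reads, and WT CD4 and WT CD8 had no island in the whole window. At Lef1 a DKO CD8 island of 1.6 kb and 36 reads lay at 130813201 to 130814800, and neither wild type had one there. All 3 H3K4me3 regions of the windows that were called in every group thus had an H3K27me3 island in DKO CD8 alone, as did 6.65% of such regions genome-wide (400 of 6019). At Tcf7 1 island covered both regions. An H3K27me3 island called only in WT CD4 was found at 1.91% of these regions, and one called only in WT CD8 at 1.16%. Counting only H3K27me3 islands above their list's median of 52 reads, the Lef1 island dropped out and the 2 Tcf7 regions, under 1 island, were left. Requiring an overlap of at least 50% of the shorter, the Tcf7 region 52086801 to 52090400 dropped out, with 1 kb of its 3.6 kb overlapped, and 1 region at each gene was left.

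These H3K27me3 islands were of ordinary size. At 20.1 reads per kb the Tcf7 island had rank 4872 of 23933 by reads and rank 15595 by density, and H3K4me3 and H3K27ac islands of the same group overlapped it. Whether both marks lay on the same alleles or in different cells cannot be told apart in bulk chromatin. Scaled to the WT CD4 library the Tcf7 island would hold 169 reads, where WT CD4 islands of that width held at least 100 and a median of 174.5. The Lef1 island would hold 42.1 reads there, where the least was 24 and the median 35. Scaled to the WT CD8 library they would hold 64.8 and 16.1 reads, under the smallest WT CD8 islands of their widths, 69 and 22. Scaled to total island reads instead, they would hold 121 and 30.1 reads there, above those smallest islands. Whether islands of this size could have been called in the WT CD8 library thus depends on the scaling, and the lack of an island there does not show that the mark was absent.

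Elsewhere in the Lef1 window H3K27me3 was sparse. DKO CD8 had islands of 41 reads at 130791801 to 130794000 and 56 reads at 130801601 to 130804400 with no partner. In the region at 130806201 to 130811000 DKO CD8 had 43 reads and WT CD4 62. WT CD8 had 1 island, of 44 reads at 130912601 to 130914600. An island at the lower edge of the window, 130785801 to 130790800, held 112 reads in DKO CD8 and 142 in WT CD4, most of it outside the window. With it the Lef1 window held 288 reads in DKO CD8, 204 in WT CD4 and 44 in WT CD8, a ratio of DKO CD8 over WT CD8 of 1.55 (1.09 to 2.04), past 2-fold where 7.18% of 150 kb windows were. Sharing its reads out by length left 0.88, under 2-fold, and turned WT CD4 over WT CD8 to -0.35, against 0.83 with whole islands.

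Both genes carried dense Tcf1 binding in wild-type splenic CD8 cells. The 8 peaks at Tcf7 are a number reached by 9 of the 4963 grid windows of 85 kb with any peak (0.181%), and the 11 at Lef1 by 4 of 4142 windows of 150 kb (0.0966%). The fixed grid can split a gene, whereas the 2 gene windows were set around theirs, so these shares can overstate how rare such numbers are. At Tcf7 the peaks at 52096479 to 52097017, 52097046 to 52097710 and 52097753 to 52098147 lay side by side, so the peaks are not all separate sites. The authors' scores, which rank peaks within the list, ran from 53.23 to 216.09 at Tcf7 and from 52.21 to 231.77 at Lef1, with medians of 88.1 and 91.42 against 76.41 in the whole list. The strongest Tcf7 peak lay at 52131806 to 52132382, rank 445 of 7807 and 35006 bp from the main H3K4me3 region on its 5′ side. It lay in the H3K27ac region of 505 reads in DKO CD8 and 286 in WT CD4 described above, and in the WT CD8 island of 139 reads. The strongest Lef1 peak lay at 130893585 to 130893977, rank 366, inside H3K27ac islands of DKO CD8 (27 reads) and WT CD4 (67 reads) but not of WT CD8. The next, at 130814687 to 130815483 with a score of 221.89 and rank 420, lay in the main Lef1 H3K4me3 region. At Tcf7 a peak of score 143.71, at 52096479 to 52097017, lay across the edge of the main H3K4me3 region, which ended at 52096800.

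H3K27ac was found at these sites in thymocytes with and without the factors. All 19 peaks lay in H3K27ac islands of DKO CD8 and of WT CD4, and 17 in those of WT CD8, where the whole list had 74.8% of its peaks in DKO CD8 islands, 81.5% in those of WT CD4 and 55.8% in those of WT CD8. For H3K9ac the counts were 9 in DKO CD8, 13 in WT CD4 and 10 in WT CD8, and the list shares 28.5% in DKO CD8, 49.6% in WT CD4 and 23% in WT CD8. For H3K4me3 they were 5 in DKO CD8 (list share 35.5%), 5 in WT CD4 (41.6%) and 4 in WT CD8 (34.5%). For H3K27me3 they were 2 in DKO CD8 (7.71%), 1 in WT CD4 (5.73%) and 0 in WT CD8 (3.34%). Wide islands hold more peaks than narrow ones, and the part of island width in these shares was not tested. With an overlap of at least 50% required, the DKO CD8 H3K27me3 islands held 0 peaks.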

How the data were processed

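Mouse thymocyte and splenic T cell ChIP-seq libraries were used. The 12 deposited island lists give read counts per island, raw and not normalized, on a 200 bp grid, and the deposited Tcf1 peaks each carry a score from the authors, never under 50. Tools in the submitters' processing notes are SICER 1.1, MACS 1.4.2, Bowtie2 2.2.5 and FastQC, on mm9, with no role for each. Some samples, not named, were sequenced again for coverage, per the labels. Library totals were not given in those notes or the labels. Reads within islands ran from 248234 (WT CD8 H3K9ac) to 4025243 (WT CD4 H3K27me3) per library. The 3 inputs and the Tcf1-/- library were not analysed here on their own.

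Islands overlapping a window by 1 bp counted whole. Overlapping islands of 2 libraries formed a region (1 bp or more), and log2 ratios were centred on the median region called in both. Intervals are exact conditional 95% (Clopper-Pearson) intervals for counts. Background windows were a fixed grid of 85 or 150 kb windows with islands in both libraries and at least 100 reads. Coordinates are 1-based. The text accounts for every merged region of both windows. Genes of the pathway and of like pattern were to be named only with an mm9 annotation, and none was used here. Members, regions and comparisons were chosen with earlier results of these data known. Values were computed with SciPy 1.17.1, pandas 2.3.3 and numpy 2.4.6 in Python 3.11.15 and drawn with matplotlib 3.10.9. Ratios and intervals were tested on simulated data. Alternatives covered the scaling, weak islands, islands in 1 library, the window edge, the peak score and the overlap.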

Additional observations from a re-analysis of the deposited data

How the results depend on the processing

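No paired analysis was possible because each group has 1 library per mark. Window ratios below are centred log2 values. Scaled to total island reads, 16 of 21 window ratios moved outside their counting interval and 6 turned sign. DKO CD8 over WT CD8 then gave 1.68, 2.01 and 1.50 at Tcf7 and 1.16, 1.38 and 0.82 at Lef1 for H3K4me3, H3K27ac and H3K9ac, and 2.45 for Lef1 H3K27me3. WT CD4 over WT CD8 gave 0.75, 1.54 and -0.45 at Tcf7, 1.13, 1.90 and -0.44 at Lef1 and 1.57 for Lef1 H3K27me3, and DKO CD8 over WT CD4 gave 1.95 for H3K9ac at Tcf7 and 1.26 at Lef1. Centred on the tenth of regions with the most reads, an alternative added after seeing the data, 7 of 21 moved: DKO CD8 over WT CD8 to 0.21 and 0.65 for Tcf7 H3K27ac and H3K9ac and -0.42 for Lef1 H3K27ac, and WT CD4 over WT CD8 to -0.22 and -0.00713 for Tcf7 H3K27ac and H3K9ac and 0.14 and 0.0027 for those marks at Lef1. Limited to regions called in both, Lef1 gave -0.27 for H3K27ac and 0.64 for H3K9ac in DKO CD8 over WT CD8, 0.0648 for H3K27ac in WT CD4 over WT CD8, and 0.29 for H3K9ac and -0.17 for H3K27me3 in DKO CD8 over WT CD4, where Tcf7 H3K4me3 gave 0.87. Limited to islands above their list's median, Lef1 H3K9ac gave 0.97 in DKO CD8 over WT CD8 and 1.23 in WT CD4 over WT CD8, and Lef1 H3K27me3 gave -0.10 in DKO CD8 over WT CD4. Reads shared out at the window edge gave 0.88, -0.35 and 1.23 for Lef1 H3K27me3 in DKO CD8 over WT CD8, WT CD4 over WT CD8 and DKO CD8 over WT CD4. The cause of these moves was not tested.

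A scaling factor common to a whole library cancels in the difference between Tcf7 and Lef1. A ratio that changes with island strength would not cancel, and its part in the difference was not tested. Under 3 other alternatives, added after seeing the data, 22 of the 27 values of this difference stayed within their counting interval and 2 turned sign. Of the 3, sharing reads out at the window edge could hardly move any value. No H3K4me3 or H3K9ac island crossed an edge, and H3K27ac of DKO CD8 over WT CD8 went from 0.625 to 0.626. The count of 22 thus overstates how well the difference held. H3K9ac of DKO CD8 over WT CD8 moved to -0.10 with islands above the median and 0.20 with regions called in both, and of DKO CD8 over WT CD4 to 0.36 with regions called in both. WT CD4 over WT CD8 moved to -0.13 for H3K27ac with regions called in both and to -0.82 for H3K9ac with islands above the median. Tcf1 peaks with a score of at least 100 numbered 3 at Tcf7 and 4 at Lef1. At Tcf7 H3K27me3 gave no window ratio, since neither wild type had an island there.

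All values rest on 1 library per group, so the spread between animals is unknown. Reads outside islands are not known, and the H3K27me3 islands of DKO CD8 over H3K4me3 at both genes would fall under the smallest WT CD8 islands of their width with median centring (64.8 and 16.1 reads) but not when scaled to total island reads (121 and 30.1 reads), a value added after seeing the data.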
